A study of Mus musculus with 18 samples.

Results

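The genes described here modify, process and crosslink collagen: the lysyl oxidases Lox, Loxl1, Loxl2 and Loxl3, the lysyl hydroxylases Plod1, Plod2 and Plod3, the procollagen chaperone Serpinh1, the procollagen C-proteinase Bmp1 and its enhancer Pcolce. They were taken by symbol, 10 genes out of 53342 gene identifiers in each count table, and all 10 passed the filter on low counts. The cells were Thy1+ HE- cells sorted from mouse hearts (HE is not spelled out in the labels). Hearts of C3H/HeJ, KK/HlJ and C57BL/6 mice were taken at day 14 or day 21 of isoproterenol (ISO, a beta-adrenergic agonist) given by implanted pump, or after saline (sham). Strain and condition give 9 groups, with 2 libraries in each. Sham labels carry no day, so both ISO days of a strain are set against the same 2 sham libraries. The labels give no age or sex and do not say that the 2 libraries of a group are separate animals, so p-values measure the spread between libraries, which may be technical.

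Procollagen chains are hydroxylated on lysines by the PLOD enzymes in the endoplasmic reticulum, and the folded triple helix is held by SERPINH1 (HSP47) on its way to the Golgi. Outside the cell BMP1 cuts off the C-terminal propeptide, helped by PCOLCE, and the trimmed molecules assemble into fibrils. Lysyl oxidases then oxidise lysines and hydroxylysines, which react to form the crosslinks that stiffen fibrils and elastic fibres. PLOD2 hydroxylates lysines of the telopeptides, the ends of the chains where the crosslinks start. In the heart these enzymes are known mainly from fibroblasts and from fibrosis.

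Library totals ran from 7230741 to 26280685 counts, and the lowest count of any member in any library was 114 (Plod2). The median correlation of a library with the others ran from 0.811 in KK/HlJ ISO day 14 replicate 1 to 0.912 in C57BL/6 sham replicate 2. Markers of resting fibroblasts summed to 81892 to 135284 CPM (read counts scaled to effective library size) in ISO libraries and to 90523 to 137311 CPM in sham libraries. Gsn was the largest part of these sums, at 51839 to 94412 CPM in ISO and 64098 to 108441 CPM in sham libraries. Medians of the list's genes went both ways, with Gsn at 65408 CPM in ISO and 78334 CPM in sham, and Col1a1 at 5112 and 4020 CPM. Markers of activated fibroblasts summed to 3296 to 7243 CPM in the 12 ISO libraries and to 1816 to 2835 CPM in the 6 sham libraries, without overlap. Of those 10 markers Postn, a matricellular protein (log2 fold change 2.17, SE 0.215), Ltbp2, a microfibril-associated protein (1.64, SE 0.209), and Cilp, a matrix protein (1.24, SE 0.184), passed the test in the mean over strains and days. Acta2, which is also in the pericyte and smooth muscle list, had the lower median in ISO libraries. It was 421 CPM (190 to 1112) in ISO and 544 CPM (417 to 901) in sham libraries. The other markers of the activated list had the higher median in ISO libraries. Endothelial markers summed to 584 to 2319 CPM in ISO and 634 to 1077 CPM in sham libraries, and macrophage markers to 9.04 to 245 CPM in ISO and 14.1 to 23.6 CPM in sham libraries. C3H/HeJ ISO day 21 replicate 1 held the highest value of both. Pericyte and smooth muscle markers summed to 1755 to 6060 CPM in ISO and 2634 to 7818 CPM in sham libraries. Schwann and glial markers summed to 103 to 202 CPM in ISO and 155 to 280 CPM in sham libraries, cardiomyocyte markers to 90.4 to 550.3 CPM in ISO and 167 to 365 CPM in sham, and epicardial markers to 111 to 535 CPM in ISO and 173 to 425 CPM in sham. Erythroid markers reached at most 218 CPM in ISO and 42.6 CPM in sham libraries, and lymphocyte markers at most 5.72 CPM in ISO and 4.16 CPM in sham. Over strains and days 1 of 15 pericyte and smooth muscle markers had a fold change above 0 (median log2 fold change -0.36), as did 2 of 10 Schwann and glial markers (median -0.61) and 10 of 12 macrophage markers tested (median 2.48). Macrophage genes all but absent from sham libraries, such as Cx3cr1 (0 CPM in each), could pass the filter on low counts only through ISO libraries. No conclusion is drawn from that macrophage count and median. The macrophage sums had a median of 29.1 CPM in ISO and 20.4 CPM in sham libraries, and KK/HlJ ISO day 14 replicate 1 also stood high, at 134 CPM. In the 19 comparisons, genes of the activated fibroblast list were called and none of the other marker lists. The lowest fold changes among markers over strains and days were those of the haemoglobin genes Hba-a1 (log2 fold change -1.97) and Hbb-bt (-1.76). The highest were those of the macrophage genes Cx3cr1, which had 0 counts in 13 of 18 libraries, and Cd68 (0.731 to 8.45 CPM in ISO and 0 to 3.82 CPM in sham libraries), and none of these 4 passed the test. The part of these cell types in the members' values was not tested. In bulk RNA, fewer cells of a type and less RNA per cell cannot be told apart.

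Per kilobase of exon, Serpinh1, Loxl1 and Pcolce stood far above the rest. Median levels over the 18 libraries, in CPM per kb, were 919.8 for Serpinh1, 465 for Loxl1, 384 for Pcolce, 79.7 for Bmp1, 62.5 for Plod3, 44.9 for Plod1, 40.8 for Loxl2, 29.8 for Loxl3, 10.4 for Plod2 and 6.13 for Lox. Serpinh1 exceeded Loxl1, Pcolce exceeded Bmp1 and Loxl3 exceeded Plod2 in 18 of 18 libraries. Neighbours in this order were less separate for Plod1 and Loxl2, where Plod1 was higher in 10 of 18, for Plod2 and Lox (13 of 18) and for Loxl2 and Loxl3 (14 of 18). Plod2 and Lox were the lowest members and also those that varied most. The highest library was 19.8 times the lowest for Plod2 and 9.28 times for Lox, against 1.90 times for Loxl1.

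**Figure D1:**
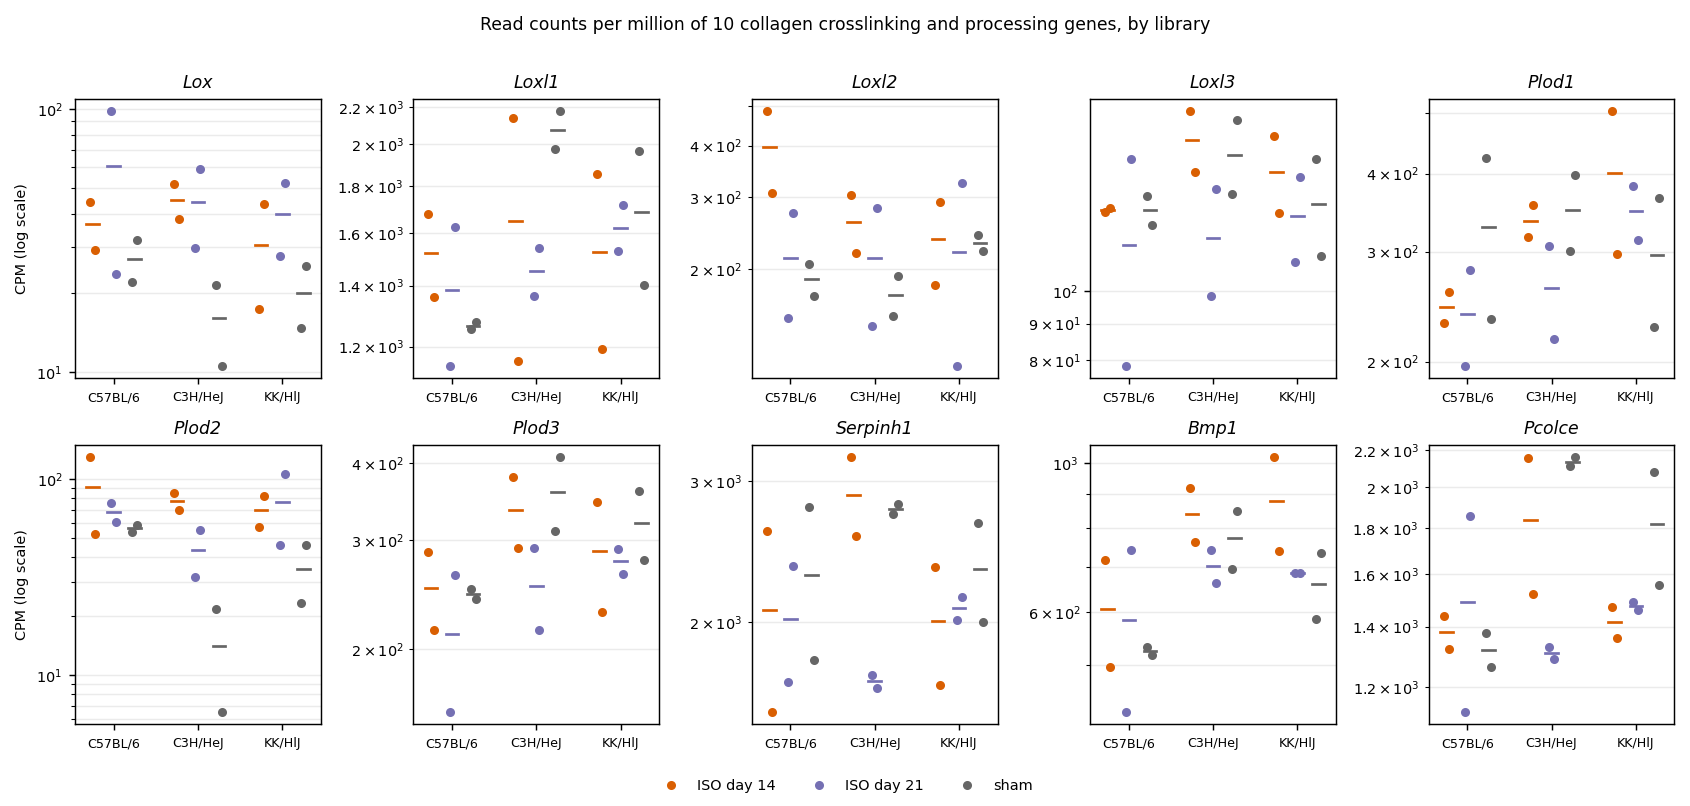
CPM (log axis, own scale for each gene) of the 10 genes in each library, for ISO day 14, ISO day 21 and sham of each strain. Points are libraries and lines are means of 2. Lox and Plod2 sit lowest in C3H/HeJ sham, and 10 of 12 ISO libraries lie above both sham libraries of their strain for Plod2. No share over all genes was computed for this count.

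None of the 10 members passed edgeR's quasi-likelihood test (Benjamini-Hochberg adjusted p under 0.05 over 15762 genes) in the mean ISO response over strains and days, in which 9 genes or 0.0571% of all genes were called and 1054 had an unadjusted p under 0.05. The same count of 0 held at day 14 (6 genes called, 0.0381%; 868 unadjusted) and at day 21 (7 genes, 0.0444%; 803 unadjusted). The members with an unadjusted p under 0.05 were Lox and Plod2 over strains and days, Lox, Loxl2 and Plod2 at day 14, and Lox and Plod2 at day 21. DESeq2 called Plod2 over strains and days, where it called 97 genes (0.763% of those it tested), and at day 14 (75 genes, 0.576%), and called 0 members at day 21 (45 genes, 0.363%). Limma-voom called 0 members in each, and 9 (0.0571%), 5 (0.0317%) and 3 (0.019%) of all genes over strains and days, at day 14 and at day 21. Plod2 and Lox had the largest values. On the log2 scale Plod2 averaged 1.19 above sham (SE 0.291, 95% interval 0.59 to 1.80; adjusted p = 0.167) and Lox 1.03 (SE 0.329, 0.35 to 1.72; adjusted p = 0.452). The other members lay between -0.23 for Serpinh1 and 0.35 for Loxl2, and the median of the 10 was -0.09, against 0.03 for all genes. Among 9 other analyses of this comparison Plod2 passed by DESeq2 (1.17, adjusted p = 0.0221). It also passed by edgeR without the filter on low counts (1.19, adjusted p = 0.00394; 97 genes called). That fit tested 26191 genes. Its median prior degrees of freedom, the weight on the spread shared by genes, were infinite, against 13.1 in the full fit. With the 4 libraries of lowest correlation left out, which leaves some groups 1 library, the value was 1.55. Of the 9, the fit of only the groups compared is the full fit again here. The fit without libraries of median correlation under 0.82 leaves out KK/HlJ ISO day 14 replicate 1 alone, which also counts among the 18 below. Lox passed in 0 of the 9. With single libraries left out and the same 15762 genes tested, Plod2 passed in 0 of 18 fits (edgeR adjusted p = 0.0680 to 0.666) and Lox in 0 of 18 (0.175 to 1). When the filter was rerun on the remaining libraries, which tests 17794 to 18017 genes because a group then holds 1 library, Plod2 passed in 14 of 18 fits and Lox in 1, and 35 to 238 of all genes were called.

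**Figure D2:**
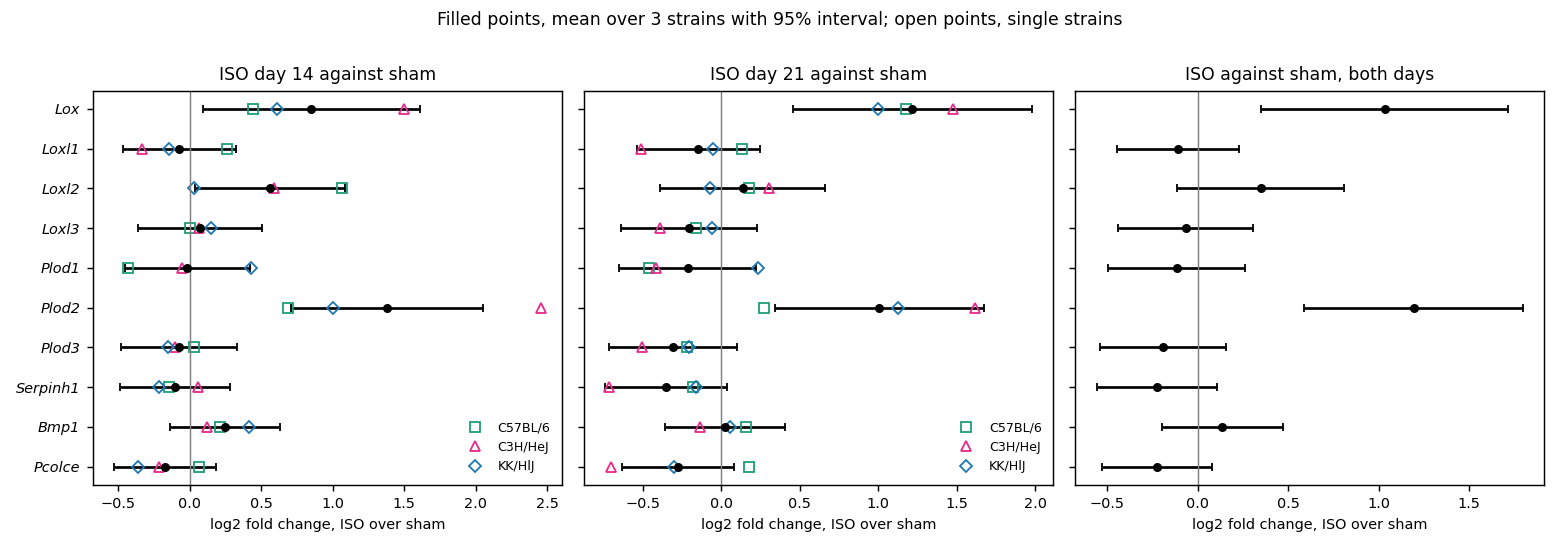
Log2 fold change of ISO over sham for each member, at day 14 (left), at day 21 (middle) and averaged over both (right). Filled points are means over the 3 strains with 95% intervals, and open symbols are single strains. The intervals of Lox and Plod2 lie above 0 in all 3 panels, and C3H/HeJ lies farthest right for Plod2.

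Serpinh1, the collagen-specific chaperone, lies on mm10 at chromosome 7, 99345376 to 99353239. It differed by -0.23 (SE 0.16; adjusted p = 0.899) over strains and days, and 1 of 12 ISO libraries lay above and 6 below both sham libraries of their strain. In C3H/HeJ it measured 3211 and 2559 CPM at ISO day 14, 1714 and 1655 CPM at ISO day 21, and 2725 and 2811 CPM in sham. Both day 21 libraries were the lowest of that strain, and the day 21 difference was -0.72 on the log2 scale (SE 0.323; edgeR adjusted p = 0.836). In C57BL/6 it measured 2595 and 1544 CPM at day 14, 1684 and 2348 CPM at day 21, and 2784 and 1789.8 CPM in sham, which overlapped.

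Bmp1, the C-proteinase (chromosome 14, 70474558 to 70520234), differed by 0.14 (SE 0.16; edgeR adjusted p = 1) over strains and days. In KK/HlJ it measured 1021 and 740.2 CPM at ISO day 14, 686 and 688 CPM at ISO day 21, and 585 and 736 CPM in sham, so that both day 14 libraries lay above both of sham. Pcolce, its enhancer (chromosome 5, 137605103 to 137613784), differed by -0.22 (SE 0.148; adjusted p = 0.882), with 2 of 12 ISO libraries above and 8 below both sham libraries of the strain. In C3H/HeJ Pcolce measured 2156 and 1522 CPM at day 14, 1327 and 1288 CPM at day 21, and 2111 and 2158 CPM in sham. Its day 21 difference there was -0.71 (SE 0.299; edgeR adjusted p = 0.836). In KK/HlJ both ISO days lay below both sham libraries, at 1472 and 1359 CPM (day 14) and 1492 and 1461 CPM (day 21), against 2079 and 1559 CPM in sham. In C57BL/6 the differences were 0.06 and 0.18.

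Promoter entries matched 4 of the 10 members, and all 4 are shown (RefSeq, GRCm38.p6; 250 bases before to 50 after the start in that table), since Serpinh1, Pcolce and Plod3 varied together over the libraries. The Pcolce window lies inside the gene as GENCODE places it, whose start is farther upstream. Capitals mark the GC box GGGCGG and the core ACGTG on either strand, which are held by 35.7% and 19.6% of 32851 promoters of the same length.
Plod1, chr4:147936727-147937026, minus strand: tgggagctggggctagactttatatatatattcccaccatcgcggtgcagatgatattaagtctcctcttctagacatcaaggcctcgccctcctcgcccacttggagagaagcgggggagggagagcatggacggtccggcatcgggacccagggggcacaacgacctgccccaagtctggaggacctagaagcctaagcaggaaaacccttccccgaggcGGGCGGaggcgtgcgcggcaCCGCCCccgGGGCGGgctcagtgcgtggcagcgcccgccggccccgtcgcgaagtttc
Plod3, chr5:136986769-136987068, plus strand: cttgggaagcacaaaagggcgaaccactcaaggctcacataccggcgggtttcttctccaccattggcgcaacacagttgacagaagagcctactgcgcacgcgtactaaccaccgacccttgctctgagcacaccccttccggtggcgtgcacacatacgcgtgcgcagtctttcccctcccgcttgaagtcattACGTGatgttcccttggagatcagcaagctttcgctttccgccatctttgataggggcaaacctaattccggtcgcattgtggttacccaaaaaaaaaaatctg
Serpinh1, chr7:99353190-99353489, minus strand: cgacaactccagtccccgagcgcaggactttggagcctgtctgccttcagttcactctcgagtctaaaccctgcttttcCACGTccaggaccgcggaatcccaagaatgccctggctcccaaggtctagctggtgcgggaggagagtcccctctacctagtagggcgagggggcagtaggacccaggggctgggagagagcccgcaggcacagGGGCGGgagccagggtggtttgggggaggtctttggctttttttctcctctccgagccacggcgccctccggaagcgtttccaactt
Pcolce, chr5:137611355-137611654, minus strand: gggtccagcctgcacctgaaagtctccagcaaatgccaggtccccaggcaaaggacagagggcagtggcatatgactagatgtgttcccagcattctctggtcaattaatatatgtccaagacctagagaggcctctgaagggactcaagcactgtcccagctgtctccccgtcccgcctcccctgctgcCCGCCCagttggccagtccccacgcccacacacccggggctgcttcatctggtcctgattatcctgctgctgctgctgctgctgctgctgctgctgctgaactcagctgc
Plod1 holds 3 GC boxes, Serpinh1 1 of each motif, Pcolce 1 GC box and Plod3 1 ACGTG. A match is a run of letters and was not tested as a binding site.

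Of the lysyl hydroxylases, Plod2 held the smallest share of the level and had the largest ISO difference. Plod2 (chromosome 9, 92542223 to 92608428) made up 5.11% to 19.7% of the summed CPM per kb of the 3 genes in ISO libraries (median 10.5%), against 0.803% to 11.01% in sham libraries (median 5.30%), and these ranges overlap. In C3H/HeJ Plod2 measured 85.5 and 69.4 CPM at ISO day 14, 31.9 and 54.8 CPM at ISO day 21, and 21.8 and 6.51 CPM in sham. All 4 ISO libraries lay above both sham libraries there. In KK/HlJ it measured 56.9 and 82.6 CPM at day 14, 46.1 and 106 CPM at day 21, and 23.4 and 46.3 CPM in sham, and 1 day 21 library overlapped sham. In C57BL/6 it measured 129 and 52.4 CPM at day 14, 75.4 and 60.8 CPM at day 21, and 54.1 and 58.6 CPM in sham. 1 of the day 14 libraries lay below both sham libraries, and the difference of 0.69 was -0.10 without replicate 1.

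By strain, Plod2 of C3H/HeJ differed by 2.45 at day 14 (SE 0.582; edgeR adjusted p = 0.506) and by 1.62 at day 21 (SE 0.567; 0.780). The values of KK/HlJ were 1.002 and 1.13, and those of C57BL/6 0.69 and 0.27. Within strains 0 members passed at either day, while the test called 2 genes (0.0127%) in C3H/HeJ at day 14, 3 genes (0.019%) in KK/HlJ at day 21 and 0 genes in the other 4 comparisons. Over strains Plod2 differed by 1.38 at day 14 (SE 0.324; adjusted p = 0.160) and by 1.01 at day 21 (SE 0.321; adjusted p = 0.880). DESeq2 called Plod2 at day 14 over strains (adjusted p = 0.0263) and in C3H/HeJ (0.0402), where it called 23 genes (0.218%). In C3H/HeJ at day 14 the difference was 3.58 without sham replicate 1 (edgeR adjusted p = 0.564) and 1.81 without sham replicate 2 (0.313). In each of these 1 sham library is left, and its spread is taken from the other groups. The sum of activated fibroblast markers was higher in ISO libraries, though the median of Acta2, in that list, was lower. The part of these markers in the Plod2 difference was not tested.

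Plod1 (chromosome 4, 147909753 to 147936767), which hydroxylates lysines of the triple helix, differed by -0.12 (SE 0.182) and Plod3 (chromosome 5, 136987019 to 136996648), which also glycosylates hydroxylysine, by -0.19 (SE 0.169) over strains and days. For Plod3, 7 of 12 ISO libraries lay below both sham libraries and 2 above. Plod1 was uneven in sign, at 0.43 for KK/HlJ and -0.43 for C57BL/6 at day 14, and its 2 C57BL/6 sham libraries stood at 423 and 234 CPM. Without the higher of these the C57BL/6 differences were 0.06 at day 14 and 0.03 at day 21. Exons of Plod3 overlap those of Znhit1 by 529 bases on the opposite strand and those of Plod2 overlap Gm38391 by 346 bases, and how reads were counted by strand is not given, so those counts are uncertain.

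**Figure D3:**
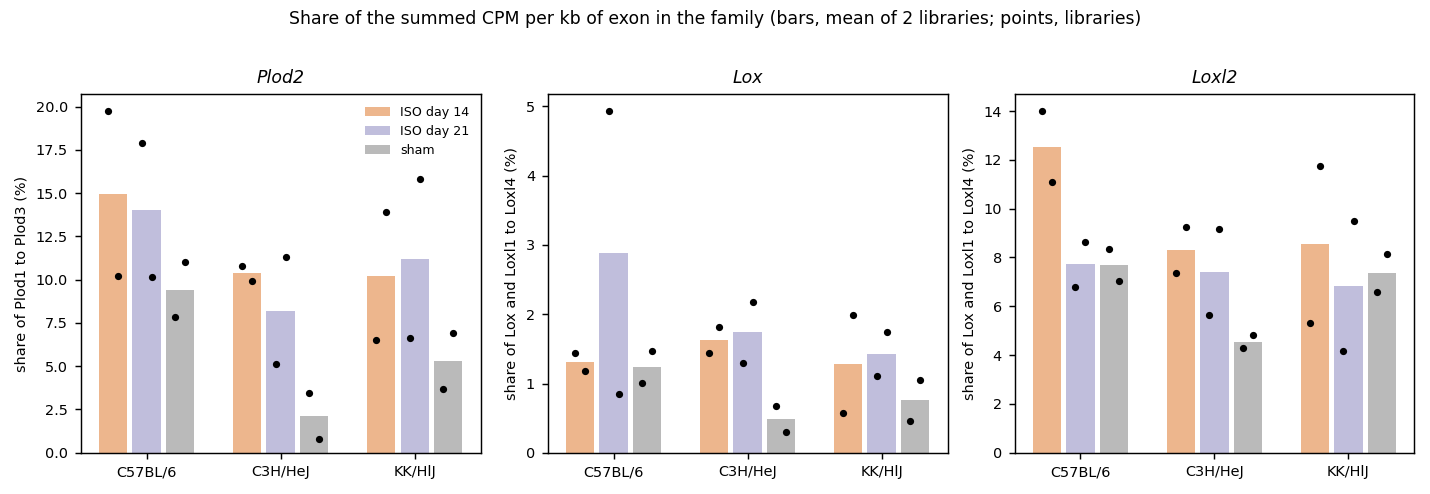
Share of the summed CPM per kb of exon that Plod2 took of Plod1 to Plod3 (left) and that Lox (middle) and Loxl2 (right) took of Lox and Loxl1 to Loxl4, in percent. Bars are means of 2 libraries and points are libraries. The Plod2 share ran from 0.803% to 11.01% in sham libraries (median 5.30%) and from 5.11% to 19.7% in ISO libraries (median 10.5%), and these ranges overlap.

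The coding sequences of the 3 hydroxylases differ in base composition. Plod2 has 44.2% G and C in its coding sequence, against 56.5% in Plod1 and 57.2% in Plod3. The middle 120 coding bases of each are shown (GENCODE M21), with G and C in capitals.
Plod2, coding bases 1078 to 1197: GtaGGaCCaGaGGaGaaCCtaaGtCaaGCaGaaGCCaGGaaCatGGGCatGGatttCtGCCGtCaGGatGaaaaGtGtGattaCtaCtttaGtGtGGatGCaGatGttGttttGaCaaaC
Plod1, coding bases 1033 to 1152: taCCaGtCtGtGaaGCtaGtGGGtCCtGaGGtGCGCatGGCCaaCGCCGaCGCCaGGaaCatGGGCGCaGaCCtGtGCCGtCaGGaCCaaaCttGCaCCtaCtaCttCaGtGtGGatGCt
Plod3, coding bases 1052 to 1171: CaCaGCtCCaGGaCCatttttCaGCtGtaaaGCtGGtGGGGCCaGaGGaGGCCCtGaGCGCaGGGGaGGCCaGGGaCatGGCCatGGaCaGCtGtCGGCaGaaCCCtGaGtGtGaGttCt
In these windows G and C make up 45% in Plod2, 58.3% in Plod1 and 60.8% in Plod3.

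Among the lysyl oxidases, Loxl1 carried most of the level and Lox showed the largest difference. Loxl1 (chromosome 9, 58287738 to 58313186), which acts on elastic fibres, made up a median of 82.9% of the family's CPM per kb in ISO libraries and 86.5% in sham libraries. It differed by -0.11 (SE 0.163; edgeR adjusted p = 1) over strains and days. In C3H/HeJ Loxl1 measured 2136 and 1156 CPM at day 14, 1364 and 1539 CPM at day 21, and 1975 and 2174 CPM in sham, so that both day 21 libraries lay below sham.

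Lox (chromosome 18, 52516067 to 52529867), the founding member of the family, measured 52.1 and 38.2 CPM at ISO day 14, 29.5 and 59.4 CPM at ISO day 21, and 21.5 and 10.6 CPM in sham in C3H/HeJ. All 4 ISO libraries of that strain lay above both sham libraries. In KK/HlJ it measured 17.4 and 43.6 CPM at day 14, 27.6 and 52.5 CPM at day 21, and 14.7 and 25.4 CPM in sham, with no overlap at day 21. In C57BL/6 it measured 44.2 and 29.0 CPM at day 14, 98.1 and 23.7 CPM at day 21, and 22.0 and 31.8 CPM in sham. The C57BL/6 day 21 difference of 1.18 rests on replicate 1 and was -0.18 without it. In all, 9 of 12 ISO libraries lay above both sham libraries of their strain for Lox and 0 lay below.

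Lox differed by 0.85 at day 14 (SE 0.365; edgeR adjusted p = 0.867) and by 1.22 at day 21 (SE 0.368; adjusted p = 0.787) over strains. By strain, Lox of C3H/HeJ differed by 1.496 at day 14 and 1.48 at day 21, that of KK/HlJ by 0.61 and 0.995, and that of C57BL/6 by 0.44 and 1.18.

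Loxl2 (chromosome 14, 69609068 to 69695834), which crosslinks collagen IV of basement membranes, had its largest difference in C57BL/6 at day 14, with 484 and 307 CPM at ISO day 14, 153 and 274 CPM at ISO day 21, and 206 and 173 CPM in sham. Both day 14 libraries lay above sham and the day 21 libraries lay on either side of it. The day 14 log2 fold change there was 1.06 (SE 0.442; edgeR adjusted p = 1), while C3H/HeJ gave 0.59 and KK/HlJ 0.03. At day 21 the Loxl2 values were 0.30 for C3H/HeJ, -0.08 for KK/HlJ and 0.17 for C57BL/6. Loxl3 (chromosome 6, 83034173 to 83052562) differed by -0.07 (SE 0.18) over strains and days, within 78.5 to 179.8 CPM in ISO and 112 to 175 CPM in sham libraries, and its exons overlap those of Htra2 by 535 bases on the opposite strand.

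Complete separation of both ISO libraries from both sham libraries of a strain was counted per day. At day 14 both ISO libraries lay above sham for Lox, Loxl2 and Plod2 in C3H/HeJ (3 of 10 members, against 19.0% of all genes), for Plod2 and Bmp1 in KK/HlJ (2 of 10, 12.8%), and for Loxl1 and Loxl2 in C57BL/6 (2 of 10, 12%). At day 21 they did so for Lox and Plod2 in C3H/HeJ (2 of 10, 18.5%), for Lox in KK/HlJ (1 of 10, 14.4%) and for Plod2 in C57BL/6 (1 of 10, 16.3%). Both lay below sham at day 21 for Loxl1, Plod3, Serpinh1 and Pcolce in C3H/HeJ (4 of 10, 16.6%), and for Pcolce in KK/HlJ at day 14 (1 of 10, 10.1%) and at day 21 (1 of 10, 11.1%). None of the 10 lay below sham at day 14 in C3H/HeJ (15% of all genes) or in C57BL/6 at day 14 (19.1%) or day 21 (20.7%). A count of 1 of 10 or 2 of 10 is near the share of all genes. No member was above its strain's sham in all 6 libraries of day 14 (0.692% of all genes) or of day 21 (0.285%) or in all 12 (0.102%), or below it (0.711%, 0.45% and 0.0825%).

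Between the days, 0 members and 0 genes passed in the mean over strains, where 293 genes had an unadjusted p under 0.05. The largest member values were -0.43 for Loxl2, -0.38 for Plod2 and 0.37 for Lox, and the Lox value was -0.09 without C57BL/6 ISO day 21 replicate 1. In C3H/HeJ Serpinh1 differed by -0.78 between day 21 and day 14 (SE 0.324; edgeR adjusted p = 1).

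Between sham libraries of the strains, 0 members passed, while 16 genes (0.102%) were called for C3H/HeJ against C57BL/6, 8 (0.0508%) for KK/HlJ against C57BL/6 and 24 (0.152%) for KK/HlJ against C3H/HeJ. Plod2 was lower in C3H/HeJ, at 21.8 and 6.51 CPM, than in C57BL/6, at 54.1 and 58.6 CPM, a log2 difference of -1.99 (SE 0.572; edgeR adjusted p = 0.497). With 1 C3H/HeJ sham library left the value was -3.13 without replicate 1 (adjusted p = 0.211) and -1.35 without replicate 2 (0.464), the spread being taken from the other groups. Loxl1 and Pcolce were higher in C3H/HeJ sham than in C57BL/6 sham, by 0.71 (SE 0.33) and 0.69 (SE 0.299), with an edgeR adjusted p of 0.947 for both. Reads of every strain were mapped to mm10, which derives from C57BL/6, and any effect of strain variants on these counts was not tested.

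The ISO response was compared between strains as a difference of the mean responses over days, and 0 members and 0 genes passed in any of the 3 pairs. For Plod2 the response of C3H/HeJ exceeded that of C57BL/6 by 1.56 (SE 0.681; edgeR unadjusted p = 0.0326, adjusted p = 1), and the response of KK/HlJ exceeded that of C57BL/6 by 0.58. Each response rests on its own strain's 2 sham libraries, and Plod2 was lowest in those of C3H/HeJ. For Lox the differences were 0.68 for C3H/HeJ against C57BL/6 and -0.01 for KK/HlJ against C57BL/6.

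Lox and Plod2 also varied with a measure of base composition. Each library's GC coefficient is the Spearman correlation, over 15752 genes, of a gene's deviation in that library with the GC content of its longest transcript. It ran from -0.321 in C57BL/6 ISO day 21 replicate 1 to 0.394 in C3H/HeJ sham replicate 2, with a median of -0.056 in ISO libraries and 0.052 in sham libraries. Lox and Plod2 have the lowest transcript GC content of the members, 43.9% and 43.0%, against 51.7% to 61.03% in the other 8. C57BL/6 ISO day 21 replicate 1 had the highest Lox value, and C3H/HeJ sham replicate 2 the lowest Lox and Plod2 values.

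Over the 18 libraries the log2 level of Lox correlated with the GC coefficient at Pearson's r = -0.82 (permutation p = 2e-05, the smallest that 100000 resamples can give; Benjamini-Hochberg 0.0002 over 10 members) and Spearman's rho = -0.76 (permutation p = 0.00048, adjusted 0.0037). For Plod2 r was -0.76 (permutation p = 0.0003, adjusted 0.0015) and rho -0.74 (permutation p = 0.00074, adjusted 0.0037). Without the 2 libraries farthest from the median coefficient, r was -0.69 for Lox and -0.62 for Plod2. Plod3 (r = 0.69, adjusted permutation p = 0.00493; rho = 0.66, 0.0102) and Plod1 (r = 0.66, 0.00805; rho = 0.68, 0.00853) went the opposite way, and r was 0.45 and 0.56 without those 2 libraries. For Loxl2 r was -0.45 (adjusted permutation p = 0.105; rho = -0.48, 0.0760) and -0.69 without those 2 libraries. For the other 5 members the adjusted permutation p of r ran from 0.0854 to 0.224. The coefficient is itself built from the deviations of genes by GC content. By construction, genes of low GC content therefore tend to correlate with it negatively and genes of high GC content positively. No r was computed over all genes, so these values do not set the members apart from genes of like GC content. The permutations shuffled libraries without regard to strain or treatment. With per-library offsets for transcript length and GC content, the difference over strains and days was 1.02 for Plod2 (edgeR adjusted p = 0.194) and 0.74 for Lox (0.866), against 1.19 and 1.03 without them. No sequencing batch is given in the labels, so values within a batch could not be computed.

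**Figure D4:**
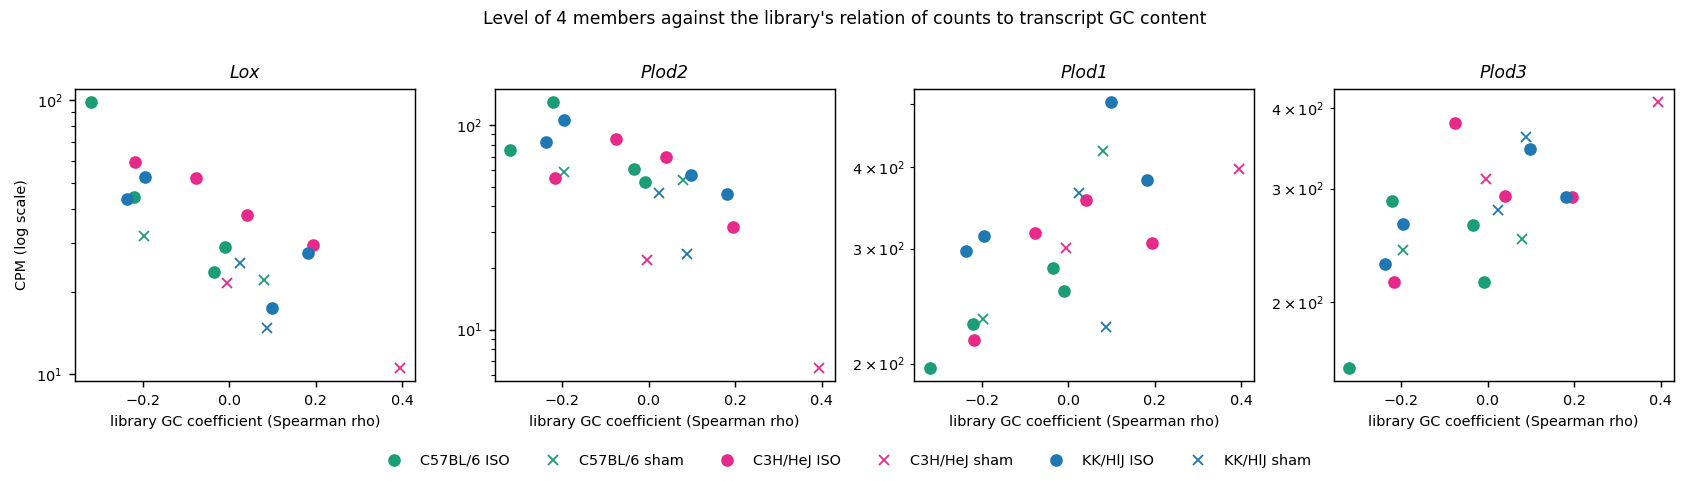
Level of Lox, Plod2, Plod1 and Plod3 (CPM, log axis) against the GC coefficient of each of 18 libraries. Circles are ISO and crosses are sham libraries, coloured by strain. Lox and Plod2 decline along the axis (r = -0.82 and -0.76), while Plod1 and Plod3 incline (r = 0.66 and 0.69).

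How the members varied together is given as a description, since libraries share groups, depth and base composition, and the sets below were chosen after their values were seen. Over the 18 libraries Loxl1, Loxl3, Plod3, Serpinh1 and Pcolce correlated with one another at r = 0.63 to 0.81 in all 10 pairs, highest for Loxl1 with Pcolce and Plod3 with Pcolce. Lox and Plod2 correlated with each other at 0.75 and with those 5 at -0.68 to -0.20. Plod3 and Pcolce lie on chromosome 5, Loxl2 and Bmp1 on chromosome 14, and Loxl1 and Plod2 on chromosome 9.

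**Figure D5:**
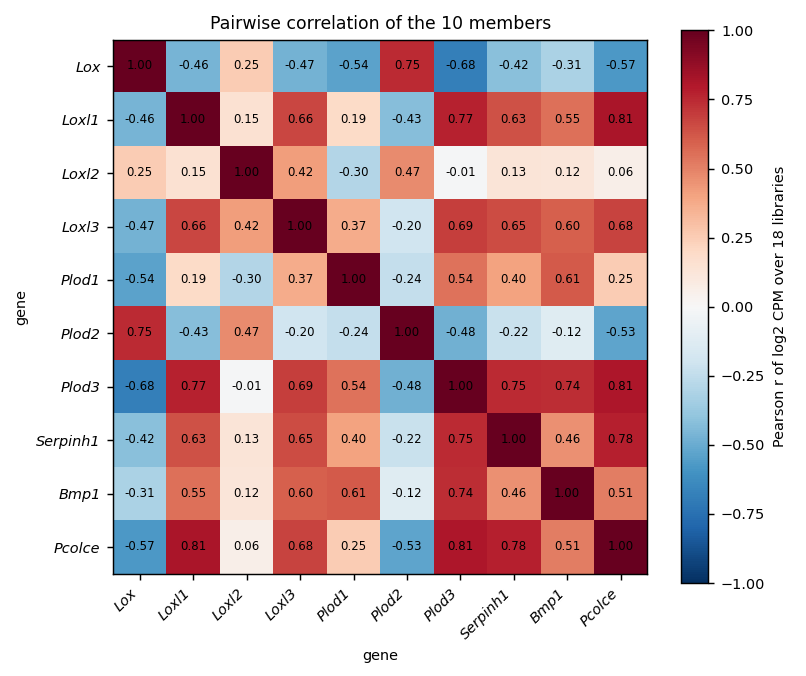
Pearson correlation of log2 CPM between each pair of members over 18 libraries (colour scale from -1 to 1, values printed). Lox and Plod2 correlated at 0.75, and Loxl1, Loxl3, Plod3, Serpinh1 and Pcolce with one another at 0.63 to 0.81. Bmp1, Plod1 and Loxl2 are in neither set, though Bmp1 reached 0.74 with Plod3 and Loxl2 reached 0.47 with Plod2.

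Among 9727 other protein-coding genes, the patterns most like Lox were those of Lima1, Dnajc13 and Kdm6a (r = 0.86 each over 18 libraries), and those most like Plod2 were Man1a2, Trip12 (0.87 each) and Golim4 (0.86). For Loxl1 they were Rhoc (0.92), Pdlim7 (0.82) and Arfgap1 (0.78), for Serpinh1 Atp6ap1 (0.75), Adprh and Tubb6, and for Pcolce Rcn3 (0.88), Ppib and H13.

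A list of other genes of collagen biosynthesis and matrix assembly gave the same count. Its 34 genes include the prolyl hydroxylases and the procollagen N-proteinases, and also matrix genes such as Sparc, Fbln1, Fbln5, Efemp2, Fmod and Tgm2. Of these 34 genes 0 were higher and 0 lower by the test in the mean over strains and days, and the median log2 fold change was 0.06. P4ha3, a prolyl hydroxylase subunit, was listed at up to 20.3 CPM in ISO libraries (median 5.90) and up to 2.28 CPM in sham libraries (median 0), with an edgeR adjusted p of 0.427. Adamts3, an N-proteinase, stood at or below 3.86 CPM in every library. The lowest values were -0.61 for Adamts14, another N-proteinase, and -0.49 for Tll2, a tolloid-like proteinase.

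Of 9 fibrillar collagens and elastin, the substrates of the oxidases, 0 passed and the median was 0.54, the value of Col1a2. The lowest were Col5a3 (-0.64) and elastin, Eln (-0.04), and the highest, Col11a1 and Col2a1, did not exceed 6.81 CPM in any library. Of 12 heat shock chaperones 0 passed, with a median of -0.03. Hsph1 was highest at 1.36 (SE 0.277; edgeR adjusted p = 0.0807), then Hspd1 at 0.85, and Hspe1 (-0.50) and Hspa1a (-0.26) were lowest.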

How the data were processed

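RNA of Thy1+ cells was sequenced as single-end reads on an Illumina HiSeq instrument, per the labels' protocols. The authors deposited whole-number counts of reads for each Ensembl gene, with a different total in each library and no normalization. The submitters' processing notes name FastQC, STAR 2.5.3a, edgeR and the mm10 genome. Sources used here do not name the annotation release, the read counter or its strand setting. Of 53342 identifiers 53237 matched GENCODE M21, which gave symbols and coordinates.

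All 18 libraries entered one edgeR 4.0.16 quasi-likelihood fit (R 4.3.3, TMM, robust, default filter) with a term for each of 9 groups and 9 residual degrees of freedom, giving 15762 genes and 19 comparisons with a call at a Benjamini-Hochberg adjusted p under 0.05. Standard errors come from the fold change and its F statistic, and 95% intervals use the moderated degrees of freedom of each gene. CPM use effective library sizes, and correlations use log2 CPM with a prior count of 2. Intervals cover no error shared by both libraries of a group.

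Alternatives were RLE scaling, DESeq2 1.42.0, voom with quality weights (limma 3.58.1), no filter, the replicate number as a block, only the groups compared, leaving out libraries of median correlation under 0.82, and each library in turn. Fits with a library left out first reran the filter on the remaining libraries. Keeping the tested genes was adopted after those calls were seen, and the refiltered fits are given as a further alternative. Leaving out the 4 libraries of lowest correlation, and offsets for transcript length and GC content, were added after seeing the data. Those libraries were C3H/HeJ sham, KK/HlJ sham, KK/HlJ ISO day 14 and KK/HlJ ISO day 21, replicate 1 of each. The fit was tested on simulated counts. A sign change of a value that was not called counts as a reversal if the value exceeded its SE. All members are reported. Of each gene list, called genes and the 2 highest and 2 lowest values are named, and likeness used genes with a mean of at least 5 CPM. Members and lists were chosen with earlier results of these data known.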

Additional observations from a re-analysis of the deposited data

How the results depend on the processing

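The count of members called was 0 in all 19 comparisons. Fits without a library used the 15762 genes of the full fit. Under these alternatives Plod2 was the member called, and 0 members were called with any single library left out. Over strains and days DESeq2, no filter and leaving out the 4 libraries of lowest correlation gave 1 member each, with 97, 97 and 141 of all genes called, against 9. At day 14 they gave 1 member each, with 75, 75 and 94 genes against 6, and in C3H/HeJ at day 14 1 member each, with 23, 23 and 3 genes against 2. Without the 4 libraries 1 member was called at day 21 over strains (78 genes against 7) and between C3H/HeJ and C57BL/6 sham (40 against 16) and KK/HlJ and C3H/HeJ sham (69 against 24). C3H/HeJ sham and each KK/HlJ group then have 1 library, assumed to vary like the others. The C3H/HeJ sham library kept, replicate 2, had the lowest Plod2 value of all libraries (6.51 CPM) and the highest GC coefficient (0.394). In C3H/HeJ at day 14 Plod2 then differed by 3.58, as it did without sham replicate 1 alone, against 2.45 in the full fit. The replicate block gave 15 genes and 0 members. Deviations of same-numbered libraries correlated at -0.144 to 0.163 over 36 pairs of groups, with 9 over 0.1. The 4 libraries of lowest correlation were all replicate 1. Whether the replicate number marks a shared batch was not tested.

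Rerunning the filter after a library was left out changed the calls. Single-library fits were first run that way, and keeping the gene set was adopted after those calls were seen. The median prior degrees of freedom were 13.1 in the full fit and infinite in the fit without the filter (26191 genes). With a library left out and the gene set kept they were 11.3 to 14.9. With the filter rerun they were at least 71.8, over 17794 to 18017 genes. Single libraries left out then gave 0 to 2 members over strains and days and at day 21, and 0 to 1 at day 14, in C3H/HeJ at day 14, between C3H/HeJ and C57BL/6 sham and between KK/HlJ and C3H/HeJ sham. Leaving out the 4 libraries gave 2 members over strains and days (769 genes), at day 14 (595), at day 21 (560) and in C3H/HeJ at day 14 (385) and day 21 (227), and 1 in the C3H/HeJ sham comparisons with C57BL/6 (484) and KK/HlJ (427) and in the C3H/HeJ response against C57BL/6 (67).

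Of 4660 fold changes under alternatives 425 changed sign, 0 of them called, and 19 were larger than their SE before. Over single libraries left out, Lox in C57BL/6 at day 21 ran from -0.186 to 1.87, Lox between days from -0.629 to 1.42 in C57BL/6 and from -0.0877 to 0.637 over strains, Plod1 in C57BL/6 from -0.794 to 0.0605 at day 14 and from -0.828 to 0.0266 at day 21, Plod2 in C57BL/6 at day 14 from -0.107 to 1.20 and Loxl1 in C3H/HeJ at day 14 from -0.846 to 0.039. Without the 4 libraries Plod1 (-0.314, and -0.311 with the filter rerun) and Bmp1 (-0.00927 and -0.00678) turned in KK/HlJ at day 14, and with the offsets Lox in C3H/HeJ sham against C57BL/6 sham stood at 0.000298. The cause was not tested. With 2 libraries a group, single-strain intervals are wide, and a p over the threshold does not show that levels were alike.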
